A study of Mus musculus with 2 samples.

Results

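The T lineage transcription factors described here are Satb1, Tcf7, Lef1, Bcl11b, Gata3, Runx1, Runx3, Zbtb7b, Tox and Foxp3, DNA-binding proteins that set up and divide the T cell lineage in the thymus. The 10 genes were listed by name, and a gene was measured where the platform annotation gave an array feature its symbol or an older synonym. In this way 9 of the 10 were measured, by 1 feature each, among 16504 genes in all, and Tcf7 was not analysed here. Thymocytes, which are T cells in development, came from mice null for the gene studied and from wild-type mice. RNA of 3 mice was pooled per genotype, and both pools were hybridised together on 2 two-colour Agilent arrays with the dyes exchanged between them. The Cy5 array and the Cy3 array are named here for the dye of the null pool. The labels give neither the strain nor the age or sex of the mice, and they name thymocytes in one field and thymus in another.

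A precursor that enters the thymus passes through a double negative stage without the coreceptors CD4 and CD8, then a double positive stage with both, and then becomes a single positive CD4 or CD8 cell. Tcf7, Gata3 and Bcl11b act early and commit the precursor to the T lineage, with Runx1 and Lef1 needed for growth and survival through the next steps. Satb1 organises chromatin around T cell genes in double positive cells. Tox is needed for the CD4 lineage, and Zbtb7b and Runx3 oppose each other in the choice between the CD4 and CD8 fates, while Foxp3 defines regulatory T cells.

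All values below are log2 of null over wild type, so that a value below 0 means less RNA in the null pool. That direction is likely but inferred, from the dye labels and from signs that the values of the Cy3 array had been multiplied by -1. The log base is inferred too, and if the deposited values were natural logs or log2 in place of log10, Satb1 would stand at -0.44 or -0.31 and Tox at -0.41 or -0.28, and 0 factors would be called. A gene was called lower or higher when it differed by at least 1.5-fold the same way on both arrays. The arrays hold the same 2 pools and count as 1 replicate, so each SD is the technical spread between the 2 arrays, differences among mice are unknown, and there is no replicate check and no p-value. The file gives ratios without intensities. Levels were therefore unknown, the cell type could not be checked against the level of its markers, and a ratio near 0 may belong to a gene whose signal was not above background.

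Of the 9 measured factors, Satb1 and Tox were lower in the null pool and none was higher. Among all genes 1.11% were lower and 0.412% were higher by the same rule. Bcl11b and Foxp3 were at least 1.5-fold lower on 1 array only, the Cy5 array, as 1.36% of all genes were, and Lef1 only on the Cy3 array, as 1.57% were. Runx1, Runx3, Zbtb7b and Gata3 were close to 0 on both arrays. In these pooled samples, fewer cells of a type and less RNA per cell cannot be told apart.

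**Figure D1:**
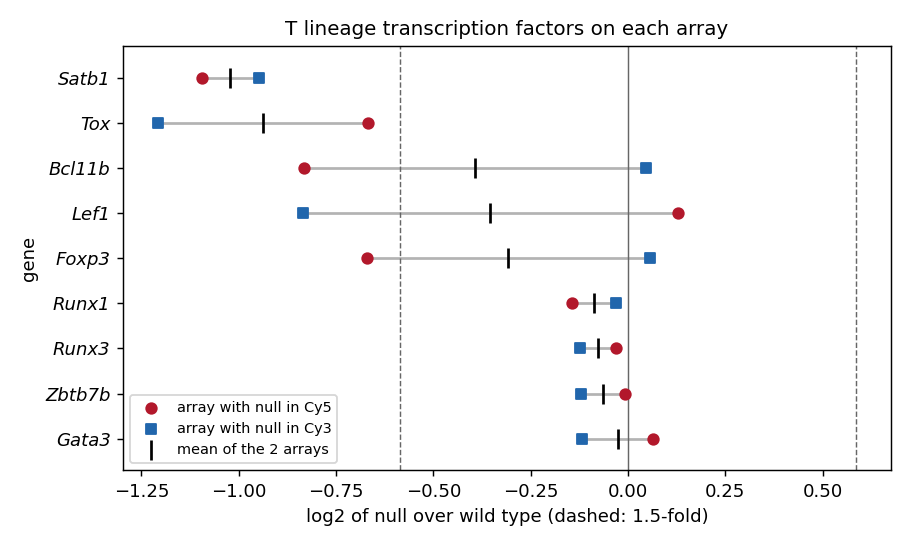
The 9 measured factors, with log2 of null over wild type on the x axis. Circles are the Cy5 array, squares the Cy3 array, bars their mean, and dashed lines 1.5-fold. Satb1 and Tox have both points beyond the left dashed line, while Bcl11b, Lef1 and Foxp3 have 1 point beyond it and 1 just right of 0.

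Satb1 (gene ID 20230), the chromatin organiser of double positive thymocytes, had -1.09 on the Cy5 array and -0.95 on the Cy3 array. The null pool thus held less Satb1 RNA on both arrays, by 2.14-fold and 1.93-fold. Its mean was -1.02 (SD 0.10), the 71st lowest of 16504 genes. The 2 arrays differed from each other by much less than the mean.

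Satb1 has several transcription start sites in RefSeq, and 5 promoter windows of it, each from 250 bases before to 50 after a start, were searched for short motifs on both strands. The one window with the half-site AGGTCA, the core that nuclear receptors bind, is shown because Satb1 had the lowest mean of the factors. It lies at chr17:51826539-51826838 of GRCm38.p6, on the minus strand, and the sequence is RefSeq's. Capitals mark the match, which reads TGACCT on this strand and starts 32 bases before the transcription start.
Satb1 promoter window: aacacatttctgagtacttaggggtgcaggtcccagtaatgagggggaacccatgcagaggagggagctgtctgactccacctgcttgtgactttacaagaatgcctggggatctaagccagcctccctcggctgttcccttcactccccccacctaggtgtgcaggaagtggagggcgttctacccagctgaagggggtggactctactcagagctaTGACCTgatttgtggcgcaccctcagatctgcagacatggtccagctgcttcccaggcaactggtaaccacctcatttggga

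The half-site was about as frequent in these windows as in those of all genes. Of 21 windows of 9 factors, Tox having none in the table used, 3 held AGGTCA (14.3%), against 5340 of 32851 windows of all genes (16.3%). The 3 belonged to Satb1, Foxp3 and Tcf7. E boxes, written CANNTG, stood in 18 of the 21 windows (85.7%), against 72.3% of all windows, and the Satb1 window shown held 5. The letters TGTGGT, known from Runx binding, were in 3 windows (14.3%), against 16.8% of all. CTTTGA, known from TCF and LEF binding, and AGATAA, known from GATA binding, were in 2 windows each (9.52%), against 16.0% and 11.2% of all. Several windows of a gene can overlap, a match is no evidence of binding, and the arrays did not measure which start was used.

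Tox (gene ID 252838), an HMG box protein that CD4 lineage thymocytes need, had -0.67 on the Cy5 array and -1.21 on the Cy3 array. Tox RNA was thus 1.59-fold lower in null on the first and 2.31-fold lower on the second. Its mean was -0.94 (SD 0.38), the 91st lowest of all genes. Satb1 and Tox differed from each other by less than the SD of Tox, so neither can be placed below the other. On the Cy5 array, Tox passed the 1.5-fold limit narrowly.

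Of the factors of commitment, Bcl11b and Gata3 gave no call, and Tcf7 was not analysed. Bcl11b, a zinc finger repressor that closes off other fates, had -0.83 on the Cy5 array and 0.05 on the Cy3 array. Its mean of -0.39 was smaller than its SD of 0.62, so the arrays do not give Bcl11b a direction. Gata3, a zinc finger factor of commitment and of the CD4 lineage, had 0.07 and -0.12 on the same arrays (mean -0.03, SD 0.13). Its 2 values lay on either side of 0.

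Lef1, an HMG box protein that works with β-catenin and overlaps in function with Tcf7, had 0.13 on the Cy5 array and -0.83 on the Cy3 array. The mean was -0.35 (SD 0.68), and here too the arrays lay on either side of 0. Unlike the other measured factors, whose features the annotation ties to RefSeq mRNAs, the Lef1 feature is tied to another cDNA record. Bcl11b and Lef1 had nearly the same mean, but the array on which each was low was not the same.

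Runx1, the Runt domain factor of early thymocytes, had -0.14 and -0.03 on the Cy5 and Cy3 arrays (mean -0.09, SD 0.08). Runx3, the factor of the CD8 lineage that silences Cd4, had -0.03 and -0.12 (mean -0.08, SD 0.07). Zbtb7b, the ThPOK protein that holds cells in the CD4 lineage, had -0.0079 and -0.12 (mean -0.06, SD 0.08). These 3 were below 0 on both arrays, but by amounts close to the spread between arrays. With Gata3 they were the 4 factors within 0.2 of 0 on both arrays, a range that held 52.6% of all genes and was chosen after the values were seen. The opposing pair Zbtb7b and Runx3 had means closer to each other than either SD.

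Foxp3, which regulatory T cells require, had -0.67 on the Cy5 array and 0.06 on the Cy3 array. Its mean was -0.31 (SD 0.51), so it too was low on 1 array only. Bcl11b and Foxp3 were thus low on the same array, and Lef1 on the other.

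**Figure D2:**
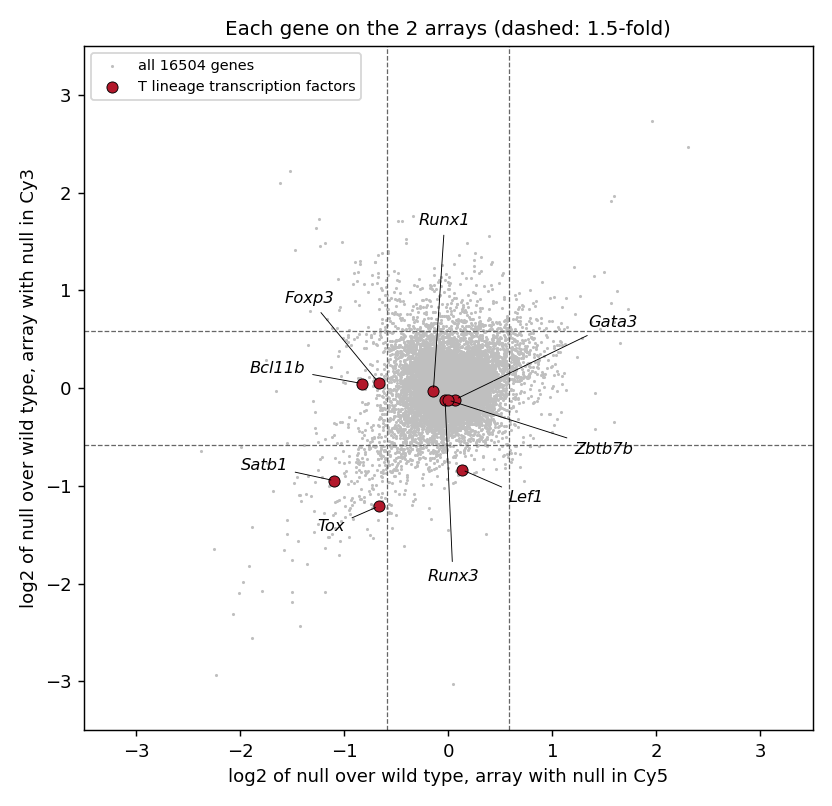
Each gene on the 2 arrays, with log2 of null over wild type on the Cy5 array on the x axis and on the Cy3 array on the y axis. Grey points are all 16504 genes, red points the 9 factors, and dashed lines 1.5-fold. Satb1 and Tox lie in the lower left corner that only 1.11% of all genes reach, and Runx1, Runx3, Zbtb7b and Gata3 lie in the centre.

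As a group, 5 of the 9 factors were below 0 on both arrays, against 25.0% of all genes. The factors and lists were chosen with earlier results of these data known, so such shares are a description and no test. None was above 0 on both, against 4123 of all 16504 genes. The median of the 9 means was -0.31, against 0.00093 for all genes. The middle factor was Foxp3, whose arrays were unlike, and the medians of the arrays taken singly were nearer to 0, at -0.14 on the Cy5 array and -0.12 on the Cy3 array. In order of their means, the factors ran Satb1, Tox, Bcl11b, Lef1, Foxp3, Runx1, Runx3, Zbtb7b and Gata3. The step from Tox to Bcl11b was smaller than the SD of Bcl11b, and no neighbours in this order were further apart than the larger of their SDs.

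Relatives of the factors in the same protein families gave no call, nor did Cbfb, a partner of Runx proteins that is counted with them here. Of 24 listed, 21 were measured, and none passed the rule, beside 1.11% of all genes lower and 0.412% higher. On both arrays 10 were below 0, against 25.0% of all genes, and 2 above 0, against 4123 of 16504. The median was -0.06. The lowest was Tox3, an HMG box relative of Tox, with -0.42 on the Cy5 array and -1.08 on the Cy3 array (mean -0.75, SD 0.46). Tox4, another relative, had 0.04 and -0.44, so the measured genes of the Tox family did not share 1 value. Tcf7l2 and Tcf7l1, the relatives of Lef1 best known from Wnt signalling in epithelia, had means of -0.56 (SD 0.35) and -0.26 (SD 0.22). Each of these 4 was lower on the Cy3 array than on the other, as were Tox and Lef1.

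Among the other families, Cbfb, the shared partner that Runx1 and Runx3 need to bind DNA, had 0.37 on the Cy5 array and -0.35 on the Cy3 array (mean 0.01, SD 0.51). Bcl11a, the relative of Bcl11b, had 0.18 and -0.17. Among the GATA genes, Gata1, the factor of red cells, stood at 0.15 (SD 0.04) and Gata2 at -0.24 (SD 0.30). The highest relative was Foxp4, of the forkhead family of Foxp3, at 0.17 (SD 0.13), beside Foxp1 at -0.03 and Foxp2 at -0.11.

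Transcription factors that work beside these in thymocytes included genes with larger ratios. Of 49 measured, 5 were lower and 1 higher, against 1.11% and 0.412% of all genes. The median was -0.05 (-0.10 on the Cy5 array and -0.07 on the Cy3 array). Egr1, which T cell receptor signals induce, was the lowest at -1.98 (SD 0.01). Egr2, its relative in selection, had -0.81 on the Cy5 array and -1.12 on the Cy3 array (mean -0.96). Bcl6 had a mean of -1.26 but a wide spread (SD 0.68). Id2, an inhibitor of E proteins known from innate lymphocytes, stood at -1.13 (SD 0.30), and Klf2, a factor of mature T cells ready to leave the thymus, at -0.98 (SD 0.25). Myc, which drives growth, was the highest and the only one called higher, at 1.10 (SD 0.23). Satb1 and Tox had means like those of Klf2 and Egr2, within the SDs of these genes.

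Corepressors and other partners of the factors had a median near 0, though most were not within 0.2 of 0 on both arrays. Of 30 measured, 29 passed in neither direction, and the median was 0.05 (arrays 0.01 and 0.04). Among all genes 1.11% were lower and 0.412% higher. On both arrays 5 were below 0, against 25.0% of all genes, and 7 above 0, against 4123 of 16504. The gene called lower was Tle4, a Groucho corepressor that binds TCF and Runx proteins. It had -0.79 on the Cy5 array and -0.87 on the Cy3 array (mean -0.83, SD 0.06). Its 2 features had -0.66 and -0.92 on the first array and -1.18 and -0.56 on the second, so the second feature alone lay just short of the limit there. The highest of the list was Rbbp7, a histone-binding subunit of chromatin complexes, at 0.51 (SD 0.16).

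T cell genes linked to these factors, by binding or by what is lost in their mutants, were lower in part. Of 27 measured, 6 were lower and none higher, against 1.11% and 0.412% of all genes, and the median was -0.26. All 6 are counted again below as markers of double positive or mature single positive thymocytes, so they are not a separate result. On both arrays 19 were below 0, against 25.0% of all genes, and 2 above 0, against 4123 of 16504. The medians of the single arrays were -0.20 on the Cy5 array and -0.40 on the Cy3 array. Satb1 is known to be needed for full expression of the recombinase genes and the coreceptor genes. Whether the Satb1 ratio bears on the values of these genes here was not tested. Of the recombinase genes, Rag1 had -0.75 on the Cy5 array and -1.50 on the Cy3 array (mean -1.13, SD 0.53). Rag2 had -0.46 and -0.95 and missed the limit on the first array. Both recombinase genes were thus below 0 on both arrays, with the lower value on the Cy3 array.

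Of the coreceptor genes, Cd4 was lower, with -0.68 on the Cy5 array and -0.66 on the Cy3 array (mean -0.67, SD 0.01). Cd8b1 had -0.20 and -0.55 and did not pass, and Cd8a had 0.20 and -0.35, on either side of 0. Among these 3 only Cd4 passed the rule, while Zbtb7b and Runx3, which act on Cd4 and Cd8a in opposite ways, had near-equal ratios. Whether Cd4 and Cd8a differed from each other was not tested.

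The other 4 lower genes of the list were Cd69, Cd6, Ccr9 and Il7r. Cd69, which thymocytes gain on positive selection, was the lowest at -2.06 (SD 0.06), followed by Cd6, a surface receptor of maturing T cells, at -1.28 (SD 0.02). Ccr9, a chemokine receptor of thymocytes, stood at -0.96 (SD 0.36), and Il7r, the survival receptor regained after selection, at -0.91 (SD 0.45). On the Cy5 array, Il7r passed the limit narrowly, at -0.59. Other receptors of maturing or migrating T cells in the list did not pass, with means of -0.57 for Cd5, -0.54 for Ccr7 and -0.04 for S1pr1. Cd3e, the invariant T cell receptor chain that all stages from the late double negative on carry, had 0.23 and -0.23 on the Cy5 and Cy3 arrays (SD 0.33). Cd3e thus showed no direction.

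**Figure D3:**
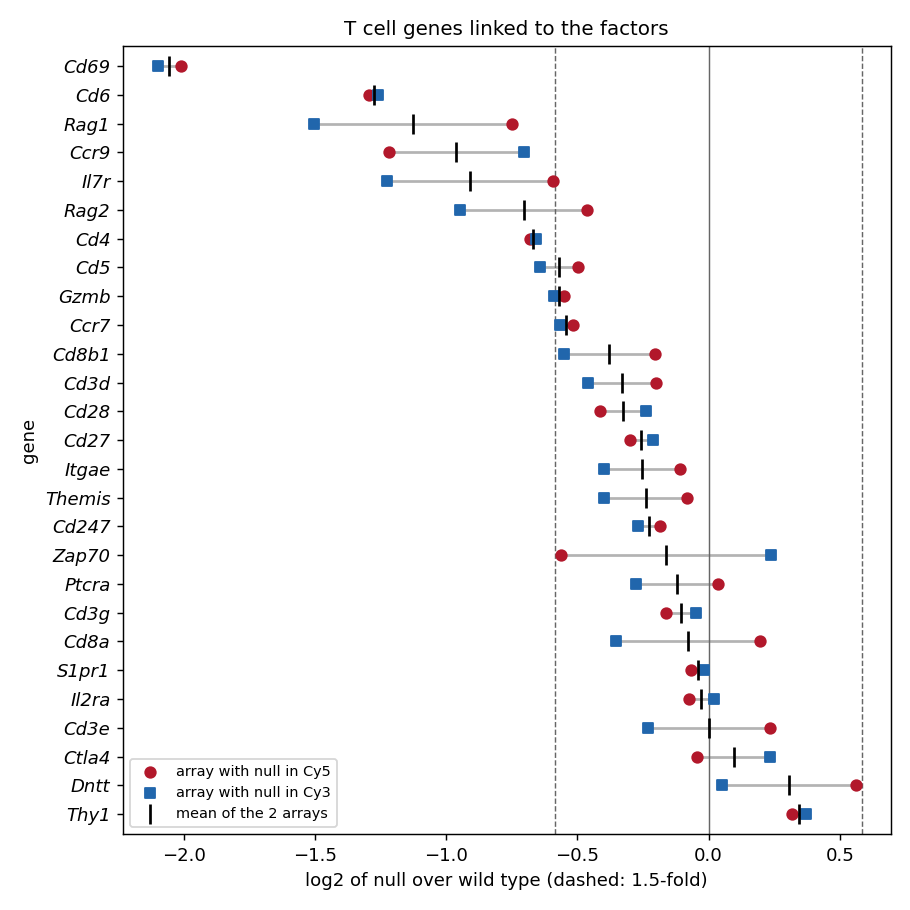
The 27 measured T cell genes linked to the factors, with log2 of null over wild type on the x axis. Circles are the Cy5 array, squares the Cy3 array, bars their mean, and dashed lines 1.5-fold. Cd69, Cd6, Rag1, Ccr9, Il7r and Cd4 have both points beyond the left dashed line.

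Genes of regulatory T cells, which Foxp3 controls, gave no call in either direction among 18 measured. Among all genes only 1.11% were lower and 0.412% higher. The median was -0.06, with means from -0.68 to 0.41. On both arrays 9 were below 0, against 25.0% of all genes, and 2 above 0, against 4123 of 16504. Il2ra, the high-affinity interleukin 2 receptor chain, had -0.07 on the Cy5 array and 0.02 on the Cy3 array. Ctla4, an inhibitory receptor, had -0.04 and 0.24. On the Cy5 array, where Foxp3 was at -0.67, the 18 genes ran from -0.66 for Capg to 0.17 for Il10. Icos, a costimulatory receptor with the lowest mean of the list, had -0.57 on the Cy5 array and -0.79 on the Cy3 array, so the first value lay just short of the limit.

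Markers of thymocyte stages and of other cells differed in the same pools, and their part in the values of the factors was not tested. Among all genes, 1.11% were lower and 25.0% were below 0 on both arrays. Of 17 measured markers of mature single positive thymocytes, 9 were lower and 15 were below 0 on the Cy5 and the Cy3 array alike. The median was -0.82 (arrays -0.59 and -0.78), with means from -2.06 to 0.09. The 9 were Cd69, Klf2, Il7r, Cd52, Gimap3, Gimap4, Gimap6, Cd6 and Ms4a4b. Of 16 double positive markers, 6 were lower, which were Cd4, Rag1, Ccr9, Spo11, Cd53 and Bcl6, with a median of -0.35 (arrays -0.21 and -0.60) and means from -1.30 to -0.0027. None of 13 double negative markers passed (median 0.0026, arrays -0.07 and 0.06, means from -0.24 to 0.31). These lists share genes with those above, 7 of the double positive and 6 of the mature markers being among the 27 linked T cell genes. Bcl6 and Klf2, lower here, were also counted among the other thymocyte transcription factors, as was Id2 of the innate lymphoid markers below.

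Markers of dividing cells lay above 0. All 19 measured markers of division were above 0 on both arrays, against 4123 of all 16504 genes. Of the 19, 3 passed as higher (Mcm3, Mcm6 and Bub1), against 0.412% of all genes. Their median was 0.64 (0.78 on the Cy5 array and 0.48 on the Cy3 array), with means from 0.21 to 0.88. Markers of other cells were mostly below 0, beside 25.0% of all genes below 0 on both arrays and 1.11% lower. Of 9 B cell markers, 8 were below 0 on both arrays and 3 were lower (Cd79a, Fcrla and Jchain), with means from -1.34 to 0.03. Of 14 markers of macrophages and dendritic cells, 9 were below 0 on both arrays and 3 were lower (Cd74, H2-Eb1 and Ctss), with means from -0.87 to 0.07. Of 11 markers of thymic epithelium, 7 were below 0 on both arrays and 3 were lower (Epcam, Krt5 and Fezf2), with means from -1.30 to 0.09. Of 12 markers of innate lymphoid and NK cells, 7 were below 0 on both arrays, Id2 was lower and Gzma higher, with means from -1.13 to 2.38. Each of these lists held defining markers near 0, such as Pax5 for B cells (-0.04), Adgre1 for macrophages (0.06), Foxn1 for epithelium (0.04) and Klrk1 for NK cells (-0.0052), which were picked after their values were seen.

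**Figure D4:**
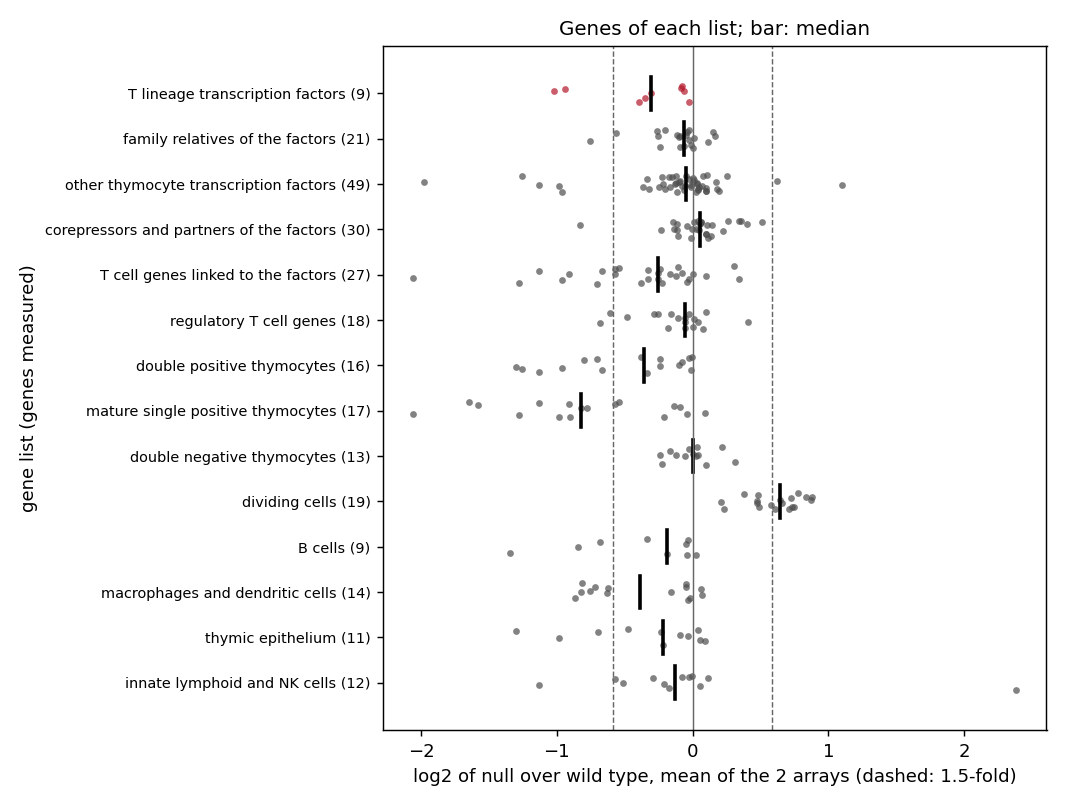
Mean log2 of null over wild type of every measured gene, by list, with the number measured in brackets. Points are genes, bars list medians, and dashed lines 1.5-fold. The factors at the top have a median of -0.31 (-0.14 on the Cy5 array and -0.12 on the Cy3 array taken singly). The list medians run from -0.82 for mature single positive markers to 0.64 for dividing cell markers, which all lie above 0.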

How the data were processed

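RNA pools of thymocytes, from 3 mice of each genotype, were compared on 2 two-colour Agilent mouse arrays, null in Cy5 on one and in Cy3 on the other. Per the submitters' processing notes, scans were read with Agilent Feature Extraction 7.1; the background and dye settings are not detailed. The authors deposited the software's log ratio of the dyes, taken here as log10 by its convention, since the base is not stated, and this was converted to log2. Medians in log10 were -0.00141 on the Cy5 array and 0.00112 on the Cy3 array. Exact zeros are written 0 for the Cy5 array (80 of 80) and -0 for the Cy3 array (82 of 82), so the values of the Cy3 array were read as already turned to null over wild type. In 1030 genes with 2 features, these correlated at r = 0.326 for the arrays' mean, against 0.0386 for their difference.

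Of 22393 features, 18218 have 1 gene symbol in the platform annotation, 16 several and 4159 none. For 18175 the symbol was brought up to date with a RefSeq table (GRCm38.p6), and features were averaged to 16504 genes. Promoter windows and their coordinates are RefSeq's, of the same build. Named were all listed factors, every gene of another list past the rule, the highest and lowest gene of the family, factor and partner lists, relatives beside their factor, and a few fixed genes. Cd5, Ccr7, S1pr1, Capg and Il10 were named outside these rules, as were genes said to be chosen or picked after their values were seen. Factors and lists were chosen with earlier results of these data known. Alternatives were centring, single arrays, the choice of feature, thresholds, log base, sign and gene names. The targeted gene is not reported here. Having only 1 pool per genotype limits the precision. Python 3.11.15, numpy 2.4.6, pandas 2.3.3 and matplotlib 3.10.9 were used.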

Additional observations from a re-analysis of the deposited data

How the results depend on the processing

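Centring each array, taking the feature with the largest change or the median feature, and using platform symbols without update moved none of the 9 factor values by more than the SD between arrays, and left the counts of factors and of all genes within 1.5 times. Each factor has 1 feature, so the choice among features could not alter it. With 1 array alone, 3 to 4 factors, 407 to 442 genes of all were lower and 381 to 482 higher, and the median of the factors was -0.14 to -0.12. Of 26 counts over the other lists, 5 moved by over 1.5 times on the Cy5 array alone and 7 on the Cy3 array alone. At 2-fold on both arrays no factor was lower (0), with 43 genes lower and 7 higher, at 1.3-fold 379 and 269, and by the mean of the arrays at 1.5-fold 285 and 188.

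The scale and the sign, both inferred, matter most. Read as natural logs, the deposited values would give Satb1 -0.44, Tox -0.41, a factor median of -0.13, 0 factors lower, and 18 genes lower and 4 higher. Read as log2 they would give -0.31, -0.28, -0.093, 0, 4 and 2 in the same order. Were both columns raw Cy5 over Cy3, the effect would be their difference divided by 2, with Satb1 at -0.073, Tox reversed at 0.27, Lef1 at 0.48, Runx3 and Zbtb7b at 0.047 and 0.056, a median of 0.047, 0 factors lower, and 56 genes lower and 16 higher. The second array's sign thus decides the calls of Satb1 and Tox. No paired analysis was possible because each genotype is 1 pool. With 1 pool per genotype nothing here measures the spread between mice, and signal over background is unknown.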

Other observations

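Ikzf1, the Ikaros zinc finger factor of lymphoid development, had 0.57 on the Cy5 array and 0.68 on the Cy3 array (mean 0.62, SD 0.08), just short of the 1.5-fold limit on the first array. Its relatives on the list of thymocyte factors lay nearer to 0, with Ikzf3 at 0.10 (SD 0.26), Ikzf2 at -0.06 (SD 0.11) and Ikzf4 at 0.01 (SD 0.13). Of the regulatory T cell genes, Icos, a costimulatory receptor, had -0.57 and -0.79 on the Cy5 and Cy3 arrays, also just short on the first array. Ets1, an Ets factor of T cells, was at -0.97 on the Cy5 array and 0.53 on the Cy3 array (SD 1.06), and Hdac7, a histone deacetylase of double positive thymocytes, at -0.48 and 0.75 (SD 0.87). All of these genes were chosen after their values were seen.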
